A study of Homo sapiens with 9 samples.

Results

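The subject here is a set of 6 genes that interferon is known to induce: PARP9, PARP10, PARP12, PARP14, DTX3L and ZC3HAV1. They were taken by gene name from a raw count table of 67140 genes, where each name has a single row, and all 6 passed the filter on low counts that left 18847 genes for testing. The table holds 9 RNA-seq libraries, made from rRNA-depleted total RNA of DMS273, an established human line of small cell lung cancer. The control cells carried a scrambled guide (their genotype is labelled WT), the ATG7 KO cells a CRISPRv2 knockout of ATG7, and the ATG7/SQSTM1 KO cells knockouts of both ATG7 and SQSTM1, with 3 libraries in each group. All cells grew in the same serum-containing medium, and the labels name neither an added interferon nor a drug. Whether each knockout is a clone or a pool is not stated, nor that the libraries of a group came from separate cultures, so p-values may measure only technical spread.

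The PARP family uses NAD+ to attach ADP-ribose to proteins and nucleic acids. A few members make long chains, while most of those induced by interferon add a single unit or have lost the activity. In antiviral defence this family marks viral and host proteins, and many viruses carry enzymes that strip the mark off again. PARP9 has macrodomains, which bind ADP-ribose, and works as a pair with DTX3L, an E3 ubiquitin ligase of the Deltex family. PARP14 joins macrodomains to a mono-ADP-ribosyltransferase domain and is known as a cofactor of STAT6. PARP10 and PARP12 are mono-ADP-ribosyltransferases. ZC3HAV1, also called ZAP or PARP13, is catalytically inactive and binds CpG-rich viral RNA, which it delivers to RNA decay.

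Library totals ran from 28675576 to 34222098 counts. Levels are CPM, counts scaled to library size after TMM normalization, and changes are log2 changes with their standard error (SE) from edgeR's quasi-likelihood test, with p-values adjusted by Benjamini-Hochberg over all tested genes and a threshold of 0.05. The targeted genes followed the labels, with ATG7 at 26.4 to 28.1 CPM in control and 9.99 to 13.0 CPM in both knockouts, and SQSTM1 at 373 to 396 CPM in the groups that keep it and 48.8 to 55.3 CPM in ATG7/SQSTM1 KO. Neuroendocrine markers, which define the labelled cell type, were present, and their summed level over 8 genes was 394 to 402 CPM in control, 147 to 151 CPM in ATG7 KO and 409 to 424 CPM in ATG7/SQSTM1 KO, with 7 of the 8 lower in ATG7 KO than in control and SCG2 higher. Of 9 blood cell markers, CD3E, MS4A1, HBB and FCGR3A had no count in any library. The summed level of the list was 5.25 to 5.96 CPM, 9.48 to 10.5 CPM and 3.36 to 4.29 CPM in the same order. Of its 4 tested genes, 3 were higher in ATG7 KO than in control and ITGAM was lower. The sum of 8 fibroblast markers was 186 to 201 CPM, 665 to 704 CPM and 334 to 355 CPM. COL1A1, COL1A2, COL3A1, DCN and LUM, 5 of the 8, were higher in ATG7 KO. PDGFRA, PDGFRB and FAP did not pass the threshold there. Endothelial markers summed to 0.510 to 3.12 CPM and keratinocyte and airway markers to 2.71 to 9.42 CPM over all libraries, both highest in ATG7 KO. The only tested gene of the latter list was TP63. The part of these shifts in the results below was not tested, and in bulk RNA more cells of a type and more RNA per cell cannot be told apart.

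The starts of the genes are shown first because 4 of the 6 share a short sequence there. PARP9 (GRCh38 chromosome 3, 122527924 to 122564577, minus strand) and DTX3L (chromosome 3, 122564238 to 122575203, plus strand) lie head to head, and PARP14 (chromosome 3, 122680618 to 122730840, plus strand) starts 116.4 kb beyond the DTX3L start. ZC3HAV1 (139043520 to 139109719) and PARP12 (140023744 to 140063721) both lie on the minus strand of chromosome 7 with starts 954.0 kb apart. These 5, like PARP10, are annotated as protein coding. The RefSeq table of GRCh38.p14 holds windows from 250 bases before to 50 bases after the start for 5 of the 6 genes, all but PARP10. Both strands were searched for the core of the interferon-stimulated response element, known from the promoters of genes induced by type I interferon. Its letters are GAAA, 2 bases of any kind, and GAAA again. The gamma-activated site TTCNNNGAA, known from genes induced by interferon gamma, reads the same on both strands and was searched as well. In the 30-base stretches shown here, written 5′ to 3′ on the strand of the gene, capitals mark every match to either motif. GENCODE annotates the stretches of PARP9, DTX3L, PARP14 and PARP12 as UTR in at least 1 transcript, and that of ZC3HAV1 lies upstream of its exons.
DTX3L, chr3:122564322-122564351, plus strand: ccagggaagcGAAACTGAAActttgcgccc
PARP9, chr3:122564322-122564351, minus strand: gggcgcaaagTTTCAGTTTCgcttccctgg
PARP14, chr3:122680794-122680823, plus strand: gagttTTCCAGGAAacGAAAGCGAAAgagt
PARP12, chr7:140062942-140062971, minus strand: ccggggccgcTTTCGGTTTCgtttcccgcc
ZC3HAV1, chr7:139109806-139109835, minus strand: gggtctgctctTTCCGGGAAtgggtggggt

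The response element core was found in the windows of PARP9, DTX3L, PARP14 and PARP12 and not in that of ZC3HAV1. Across all 35116 RefSeq windows of this length, 3.57% held it, and 7.66% held TTCNNNGAA. Counted by gene symbol, as the genes here are, the shares were 4.38% and 9.38% of 27305 symbols. PARP9 and DTX3L have RefSeq starts 38 bases apart and share 1 match, chr3:122564332-122564341. Counted from the start base as 0 on the strand of each gene, it lies at −41 to −32 of PARP9 and spans the start of DTX3L at −6 to 3. PARP9 has a further RefSeq start 446 bases from that of DTX3L, whose window has no match. The PARP14 match GAAAGCGAAA follows the match TTCCAGGAA, with no overlap between them, at −29 to −20 and −40 to −32. In PARP12 the match TTTCGGTTTC, the motif on the other strand, ends at the base before the start. ZC3HAV1 held only TTCCGGGAA, at −104 to −96. For comparison, the response element core stood in 0 of 10 windows of the other PARP genes and in 10 of 11 windows of a list of other interferon-stimulated genes. It stood in 0 of 11 windows of interferon signalling genes, most of which also rose in ATG7 KO, in 4 of 8 of interferon genes, in 1 of 13 of genes that work with ZC3HAV1 or in RNA decay, and in 1 of 4 of the genes with the most similar pattern. Genes of ADP-ribose removal (11 windows), NAD+ (10) and the Deltex family (2) had 0. A match is a run of letters and does not show that a factor binds there.

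In ATG7 KO cells all 6 genes were higher than in control, by 1.78-fold to 3.44-fold, with the libraries of the 2 groups apart for each. In ATG7/SQSTM1 KO cells they stood at or near the control level, with PARP9, DTX3L and PARP14 slightly higher than control and the other 3 not past the threshold. PARP9, DTX3L and PARP14, the chromosome 3 genes, had the 3 largest rises in ATG7 KO, and PARP12 and ZC3HAV1, the chromosome 7 genes, the 2 smallest. DTX3L and PARP10, on chromosome 8, were close, with overlapping 95% intervals of the log2 change (1.196 to 1.379 and 1.053 to 1.338). Without control replicate 3 their log2 changes were 1.254 and 1.245, so the order of these genes is not settled. The plot of levels by library shows the same shape in each panel.

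**Figure D1:**
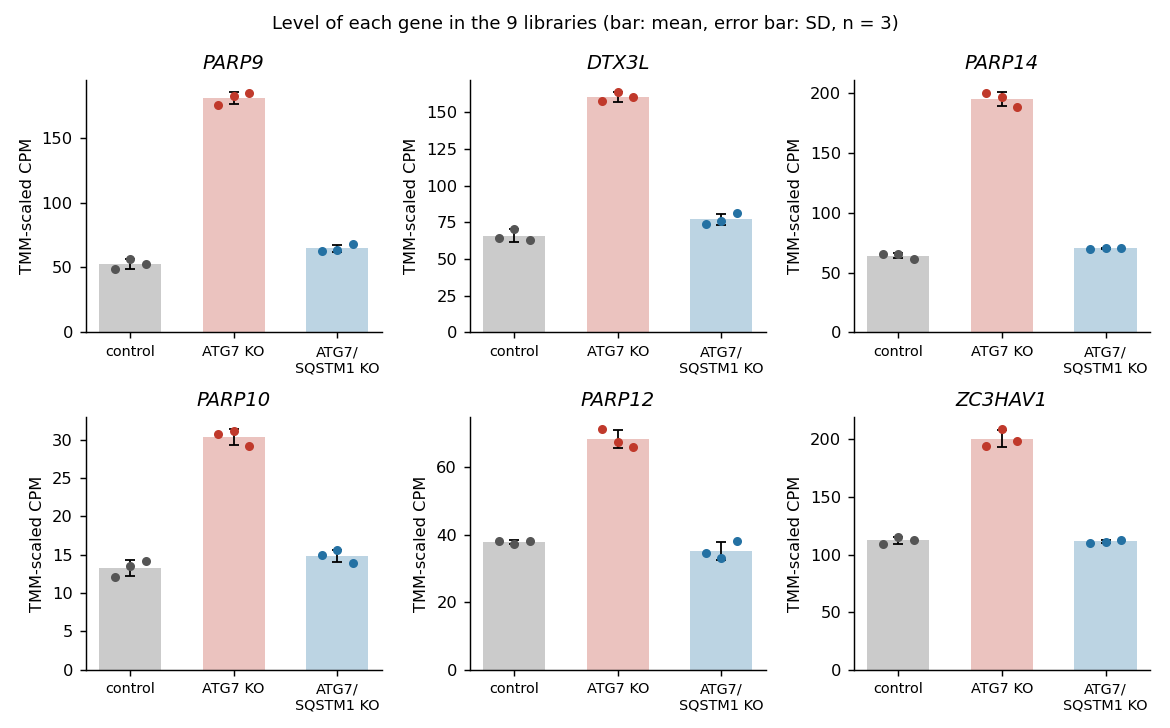
TMM-scaled CPM (vertical axis, from 0) of PARP9, DTX3L, PARP14, PARP10, PARP12 and ZC3HAV1 in control, ATG7 KO and ATG7/SQSTM1 KO cells, with a point for each library, a bar for the mean and an error bar for the SD (n = 3). In each panel the 3 ATG7 KO libraries sit above the other 6, which lie close together.

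PARP9, the macrodomain partner of DTX3L, stood at 48.8, 56.5 and 52.3 CPM in control, at 175, 182 and 184 CPM in ATG7 KO, and at 62.8, 63.2 and 68.1 CPM in ATG7/SQSTM1 KO. The 3 groups did not overlap, and ATG7 KO was far above both others. Its log2 change was 1.78 (SE 0.047, 3.44-fold, edgeR adjusted p = 3.99e-16) in ATG7 KO and 0.30 (SE 0.047, edgeR adjusted p = 5.53e-05) in ATG7/SQSTM1 KO, both against control.

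DTX3L, the ubiquitin ligase, stood at 64.0, 70.7 and 62.7 CPM in control, at 157, 164 and 160.4 CPM in ATG7 KO, and at 74.2, 75.7 and 81.2 CPM in ATG7/SQSTM1 KO. As with PARP9, the groups were fully separate and in the same order. The log2 change was 1.29 (SE 0.044, 2.44-fold, edgeR adjusted p = 2.69e-15) in ATG7 KO and 0.23 (SE 0.044, edgeR adjusted p = 0.000369) in ATG7/SQSTM1 KO.

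PARP14, the STAT6 cofactor, stood at 65.2, 65.3 and 61.6 CPM in control, at 199.8, 197 and 188 CPM in ATG7 KO, and at 69.7, 70.1 and 70.7 CPM in ATG7/SQSTM1 KO. The ATG7/SQSTM1 KO libraries were just above the highest control library. The log2 change was 1.61 (SE 0.035, 3.04-fold, edgeR adjusted p = 3.66e-19) in ATG7 KO and 0.13 (SE 0.035, edgeR adjusted p = 0.0054) in ATG7/SQSTM1 KO, a difference of 9.5% on the linear scale.

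PARP10, on chromosome 8 and the least abundant of the set, stood at 12.1, 13.6 and 14.2 CPM in control, at 30.7, 31.2 and 29.2 CPM in ATG7 KO, and at 14.98, 15.6 and 13.99 CPM in ATG7/SQSTM1 KO. Control and ATG7/SQSTM1 KO overlapped. The rise in ATG7 KO was 1.20 on the log2 scale (SE 0.068, 2.29-fold, edgeR adjusted p = 2.47e-12). The ATG7/SQSTM1 KO difference of 0.16 did not pass the threshold (95% interval 0.016 to 0.312, edgeR adjusted p = 0.0747), although it did without control replicate 3 (log2 change 0.21, edgeR adjusted p = 0.0419).

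PARP12 stood at 38.2, 37.2 and 38.2 CPM in control, at 71.4, 67.5 and 66.2 CPM in ATG7 KO, and at 34.6, 33.0 and 38.3 CPM in ATG7/SQSTM1 KO. Here 2 of the 3 ATG7/SQSTM1 KO libraries were below every control library. The rise in ATG7 KO was 0.85 (SE 0.048, 1.81-fold, edgeR adjusted p = 2.06e-12). The ATG7/SQSTM1 KO difference of −0.10 (95% interval −0.203 to 0.005, edgeR adjusted p = 0.128) passed the threshold without ATG7/SQSTM1 KO replicate 3, at −0.16 (edgeR adjusted p = 0.0134).

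ZC3HAV1, the RNA-binding member, stood at 109, 115 and 113 CPM in control, at 194, 209 and 199 CPM in ATG7 KO, and at 110.4, 111 and 113 CPM in ATG7/SQSTM1 KO. Its rise in ATG7 KO was 0.83 on the log2 scale (SE 0.033, 1.78-fold, edgeR adjusted p = 4.57e-15), within the error of that of PARP12, and their order turned without ATG7 KO replicate 1 (0.87 for ZC3HAV1 and 0.83 for PARP12) or control replicate 2 (0.85 and 0.84). Its ATG7/SQSTM1 KO libraries lay within the range of control, with a difference of −0.015 (95% interval −0.083 to 0.054, edgeR adjusted p = 0.773).

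Against the whole table, 6 of 6 genes were called higher in ATG7 KO, where 28.4% of all tested genes were. Their libraries did not overlap between the groups in 6 of 6 cases, against 30.8% of tested genes in that direction. PARP9, PARP10, PARP14 and DTX3L, 4 of 6, were called and at least 2-fold higher, against 4.22% of tested genes. The median log2 change of the 6 was 1.24 and that of all tested genes −0.017. Of all tested genes, 1.49% had a larger log2 change than PARP9 and 5.95% a larger one than ZC3HAV1. In ATG7/SQSTM1 KO against control, 3 of 6 were called higher and 0 lower, where 19.0% of tested genes were called higher and 19.6% lower. None of these 3, PARP9, DTX3L and PARP14, reached 2-fold, as 2.2% of tested genes did upwards. The libraries of these 3 lay wholly above control, as did those of 23.9% of tested genes, and the median of the 6 was 0.15 beside −0.008 over all tested genes. These 2 comparisons share the control libraries. Since the genes were picked with earlier results of these data known, the counts describe them and are no independent evidence.

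The third comparison sets ATG7/SQSTM1 KO directly against ATG7 KO. It asks how the cells differ when SQSTM1, the autophagy receptor p62, is lost on top of ATG7. It uses the same libraries as the other 2, and in this fit its log2 change is the second minus the first. The falls below therefore largely restate the rises in ATG7 KO and are no further evidence. All 6 genes were lower in ATG7/SQSTM1 KO, where 29.9% of tested genes were called lower. The libraries of the groups did not overlap for 6 of 6 genes, against 32.4% of tested genes in that direction. PARP9 fell by 1.48 on the log2 scale (SE 0.046, edgeR adjusted p = 4.69e-15) and PARP14 fell by 1.48 (SE 0.035, edgeR adjusted p = 1.11e-18), with DTX3L falling by 1.06 and PARP10 by 1.03. These 4 were at least 2-fold lower, as 3.86% of tested genes were. PARP10 was just past that limit and fell short of it with library totals in place of TMM (−0.993) and without ATG7/SQSTM1 KO replicate 3 (−0.997), where PARP12 passed it (−1.02). PARP12 fell by 0.95 (SE 0.048, edgeR adjusted p = 3.27e-13) and ZC3HAV1 fell by 0.85 (SE 0.033, edgeR adjusted p = 3.40e-15). The median over the 6 was −1.05, with 0.019 over all tested genes.

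**Figure D2:**
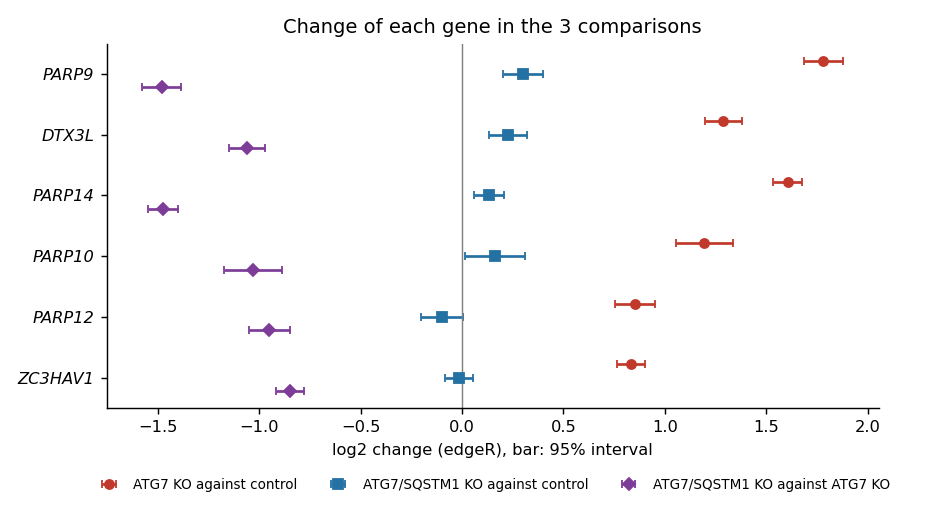
Log2 change (horizontal axis) of the 6 genes (rows) in the 3 comparisons named in the legend, with bars for the 95% interval of the edgeR fit. The ATG7 KO points run from 0.83 (ZC3HAV1) to 1.78 (PARP9), while those of ATG7/SQSTM1 KO against control lie between −0.10 and 0.30.

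Within the pair, PARP9 rose by a larger factor than DTX3L in these libraries. The ratio of PARP9 to DTX3L, in counts per kb of annotated exon, was 0.500, 0.524 and 0.548 in the control libraries, 0.731, 0.729 and 0.755 in ATG7 KO, and 0.556, 0.548 and 0.550 in ATG7/SQSTM1 KO. The 3 ATG7 KO libraries were thus above all 6 others, and every library had less PARP9 than DTX3L per kb. Without the division by length the ratio was 1.11, 1.11 and 1.15 in ATG7 KO, where PARP9 had more counts than DTX3L. In the other 6 libraries it was 0.762 to 0.846. On the log2 scale the ratio was higher in ATG7 KO than in control by 0.495, and between ATG7 KO and ATG7/SQSTM1 KO it fell by 0.421. Exact two-sided permutation tests gave p = 0.1 for each, the smallest p that 3 libraries against 3 allow (0.15 adjusted over the 6 tests of ratios and shares). Between ATG7/SQSTM1 KO and control the difference was 0.074 (exact permutation p = 0.2, adjusted 0.24). The exons of the genes overlap by 217 bases on opposite strands, 2.43% of the exon length of PARP9 and 3.70% of that of DTX3L. How the counting treated strand is not given in the sources used here, so reads from that stretch may be counted for either gene. PARP10 shares 8.64% of its exon bases with the genes GRINA and SPATC1 on the other strand, and the other 3 share none.

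The 6 genes were ordered by their level per kb of annotated exon. The length used merges the exons of all annotated transcripts of a gene, so it need not be that of the transcripts expressed. In control ZC3HAV1 was highest (13.7 ± 0.36 CPM per kb, SD, n = 3), followed by DTX3L (11.2 ± 0.73), PARP14 (6.10 ± 0.20), PARP12 (6.02 ± 0.090), PARP9 (5.88 ± 0.43) and PARP10 (2.20 ± 0.18). PARP14, PARP12 and PARP9 overlapped in that order and are not told apart by their libraries. In ATG7 KO the order was DTX3L (27.4 ± 0.57 CPM per kb), ZC3HAV1 (24.4 ± 0.91), PARP9 (20.2 ± 0.53), PARP14 (18.6 ± 0.57), PARP12 (10.9 ± 0.43) and PARP10 (5.04 ± 0.17), with no overlap between neighbours. In ATG7/SQSTM1 KO ZC3HAV1 (13.5 ± 0.13 CPM per kb) and DTX3L (13.1 ± 0.63) overlapped at the top, followed by PARP9 (7.23 ± 0.33), PARP14 (6.68 ± 0.048), PARP12 (5.62 ± 0.43) and PARP10 (2.46 ± 0.14). Thus on this scale DTX3L passed ZC3HAV1 in ATG7 KO alone. PARP9, on this scale level with PARP12 and PARP14 in control, stood apart from both in the knockouts. Without the division by length, ZC3HAV1 was highest in all 3 groups. In ATG7 KO its mean was then 200.6 CPM, followed by PARP14 (195.0), PARP9 (180.6) and DTX3L (160.6). The lengths come from GENCODE 29, which may not be the annotation the counts were made with.

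The rest of the PARP family showed no common direction in ATG7 KO. Of 12 other PARP genes, 10 were tested, and in ATG7 KO 3 rose and 4 fell, with a median of −0.008. Beside these counts, and those of the lists below, 5348 of all 18847 tested genes were called higher in ATG7 KO and 5340 lower. TNKS, a tankyrase, which makes chains on targets such as AXIN, fell from 53.5 ± 0.80 to 44.4 ± 0.94 CPM (log2 change −0.27, edgeR adjusted p = 2.54e-06), and PARP16, an enzyme of the endoplasmic reticulum, fell from 14.5 ± 1.3 to 11.2 ± 1.2 CPM. TNKS2 rose by 0.14, and PARP3, a DNA repair member, went from 4.28 ± 0.050 to 5.47 ± 0.19 CPM. PARP1, the abundant DNA damage sensor, rose by 0.064 (edgeR adjusted p = 0.0305), a call that was lost with library totals in place of TMM, as was that of PARP3. With relative log expression size factors PARP2 and PARP11 lost their call among those that fell, leaving 2. In ATG7/SQSTM1 KO against control 6 of the 10 rose and 2 fell, where 19.0% of tested genes were called higher and 19.6% lower. Their median was 0.13, near the 0.15 of the 6 genes of the set. TNKS was then above control, at 62.0 ± 0.72 CPM (log2 change 0.21, edgeR adjusted p = 7.84e-05).

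PARP15, whose start lies 13.4 kb beyond that of DTX3L and before PARP14, had 0 counts in the 3 control and the 3 ATG7 KO libraries and 2 in all 3 ATG7/SQSTM1 KO libraries together. A count of 0 allows up to 3 counts per library, about 0.0877 to 0.105 CPM here, counting error only. The gene was below detection at this depth in control and ATG7 KO, while its neighbours on both sides rose. PARP8, the other PARP gene below the filter, had 19, 20 and 28 counts over the control, ATG7 KO and ATG7/SQSTM1 KO libraries.

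**Figure D3:**
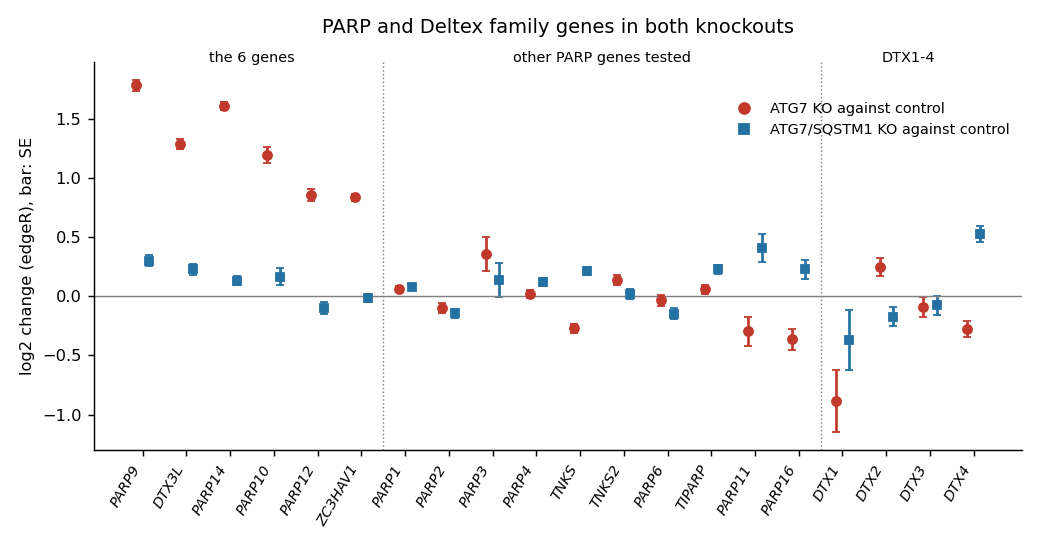
Log2 change (vertical axis, bars for the SE) in ATG7 KO and ATG7/SQSTM1 KO, each against control, for the 6 genes, the 10 other tested PARP genes and DTX1 to DTX4. In ATG7 KO the 6 genes lie between 0.83 and 1.78, and each of the other PARP genes lies between −0.37 and 0.36.

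As a share of the whole family, the 5 PARP genes of the set (DTX3L is not a PARP) took 18.2%, 19.2% and 18.4% of the counts per kb over 17 PARP genes in the control libraries. The share was 33.8%, 34.7% and 34.4% in ATG7 KO and 18.3%, 18.3% and 19.1% in ATG7/SQSTM1 KO. It was thus higher in the 3 ATG7 KO libraries than in the other 6, with a mean of 34.3% ± 0.45 against 18.6% ± 0.55 in control (SD, n = 3, exact two-sided permutation p = 0.1, the smallest possible, 0.15 adjusted). Between ATG7/SQSTM1 KO (18.6% ± 0.43) and control the exact permutation p was 0.8, with a difference of −0.032 percentage points whose sign depended on single libraries.

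**Figure D4:**
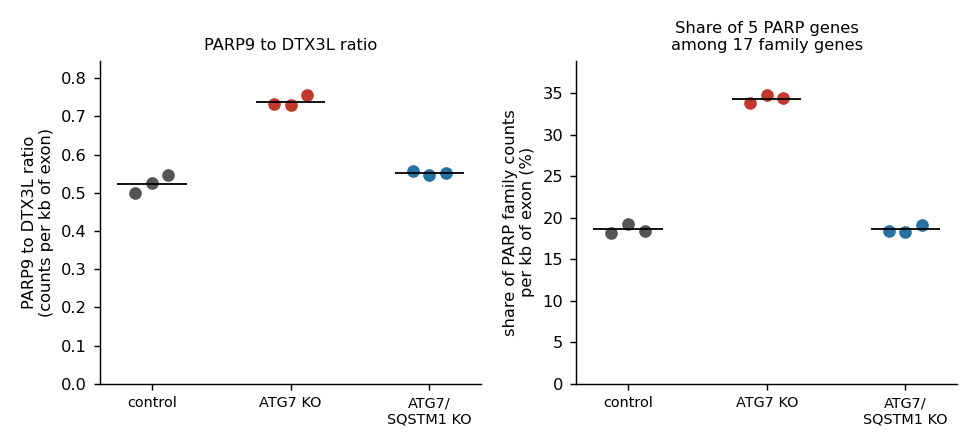
Left, the ratio of PARP9 to DTX3L in counts per kb of exon, and right, the share in percent of 5 PARP genes (PARP9, PARP10, PARP12, PARP14, ZC3HAV1) among 17 PARP family genes, by library, with a line at the mean of each group. On both axes, which start at 0, the ATG7 KO libraries (0.729 to 0.755, and 33.8% to 34.7%) lie above all others.

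The Deltex relatives of DTX3L differed in direction. In ATG7 KO DTX4 fell from 15.5 ± 0.67 to 12.8 ± 0.96 CPM and DTX1, at a low level, from 1.76 ± 0.45 to 0.948 ± 0.17 CPM, while DTX2 rose from 10.8 ± 0.41 to 12.8 ± 0.69 CPM and DTX3 did not pass the threshold (21.0 ± 1.9 and 19.7 ± 1.0 CPM). In ATG7/SQSTM1 KO DTX4 was above control, at 22.3 ± 0.62 CPM (log2 change 0.52, edgeR adjusted p = 2.57e-06), and the other 3 were not called.

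The neighbourhood of the genes was read next, since PARP9, DTX3L and PARP14 form a cluster. Among 9 other tested genes whose start lies within 500 kb of PARP9 or DTX3L, 2 rose and 2 fell in ATG7 KO and 0 were 2-fold higher, with a median of 0.029 (3 rose and 0 fell in ATG7/SQSTM1 KO against control). KPNA1, an importin 49.3 kb away, rose from 119.7 ± 5.5 to 164 ± 1.1 CPM (log2 change 0.45, SE 0.034, edgeR adjusted p = 3.16e-10), and CCDC58 rose by 0.25. FAM162A fell by 0.45 and SEMA5B, an axon guidance gene at a low level, fell by 1.31. Of 14 other tested genes within 500 kb of PARP12 or ZC3HAV1, 1 rose and 6 fell, with a median of −0.076. The 1 that rose was TTC26, 24.0 kb from ZC3HAV1 (log2 change 0.33). KDM7A, a histone demethylase 113 kb from PARP12, fell from 53.1 ± 2.5 to 19.3 ± 1.3 CPM (log2 change −1.46, edgeR adjusted p = 1.70e-15). ZC3HAV1L, the paralog next to ZC3HAV1, fell from 12.2 ± 0.16 to 8.71 ± 0.24 CPM while ZC3HAV1 rose.

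**Figure D5:**
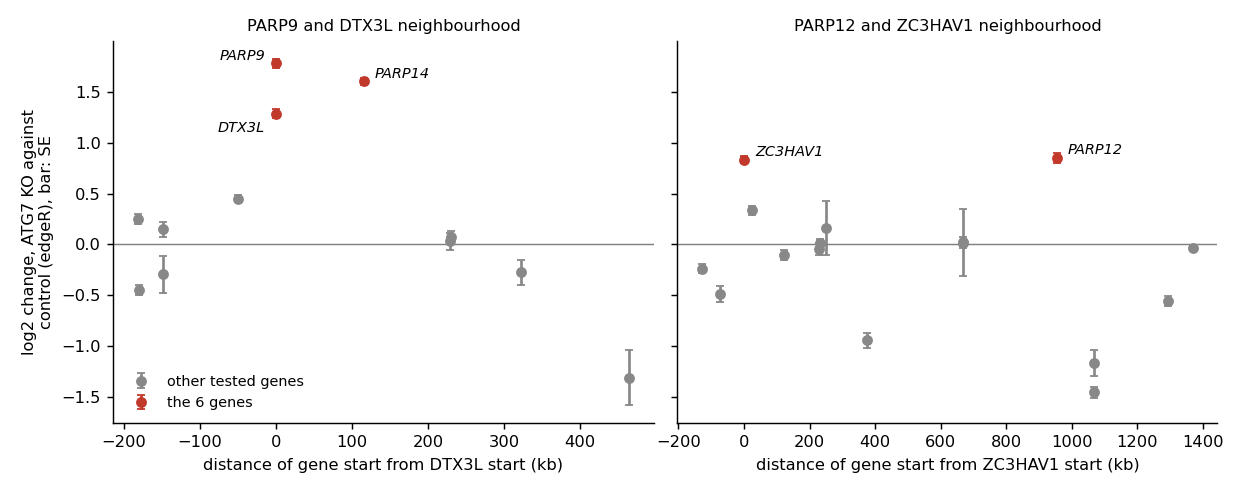
Log2 change in ATG7 KO against control (vertical axis, bars for the SE) of every tested gene within 500 kb of PARP9 or DTX3L (left), or of PARP12 or ZC3HAV1 (right). The horizontal axis gives the distance of its start in kb from the start of DTX3L (left) or ZC3HAV1 (right). PARP9, DTX3L, PARP14, ZC3HAV1 and PARP12 lie at 0.83 or above, and the other tested genes at 0.45 or below.

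Genes that remove or read ADP-ribose showed no common direction. Of 12 tested, 3 rose and 4 fell in ATG7 KO (median 0.014), with 3 falling under relative log expression size factors. In ATG7/SQSTM1 KO against control 4 rose and 1 fell (median 0.088). ENPP1, a membrane phosphodiesterase, fell from 15.03 ± 0.77 to 5.29 ± 0.27 CPM in ATG7 KO (log2 change −1.50, edgeR adjusted p = 8.16e-13) and stood at 19.5 ± 1.1 CPM in ATG7/SQSTM1 KO. MACROD1, which takes mono-ADP-ribose off proteins, fell from 14.5 ± 0.42 to 10.3 ± 0.32 CPM. ADPRS, a hydrolase of serine-linked ADP-ribose, rose from 31.4 ± 0.40 to 38.6 ± 0.75 CPM, the Nudix hydrolase NUDT16 rose from 57.3 ± 0.56 to 68.2 ± 1.7 CPM, and ADPRH, the hydrolase for arginine, rose by 0.26 (not called with library totals in place of TMM). PARG, the chain-cutting enzyme, was not called in any comparison (29.7 ± 1.2, 31.9 ± 0.93 and 31.4 ± 2.5 CPM in control, ATG7 KO and ATG7/SQSTM1 KO).

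Of 11 tested genes of NAD+ supply and use, 2 rose and 4 fell in ATG7 KO (5 fell with library totals in place of TMM). NAMPT, the rate-limiting enzyme of NAD+ salvage, rose from 298 ± 6.0 to 374 ± 5.6 CPM (log2 change 0.33, edgeR adjusted p = 4.16e-10) and stood at 299 ± 4.1 CPM in ATG7/SQSTM1 KO. NNMT, which methylates nicotinamide and so removes it from salvage, rose from 8.64 ± 0.85 to 24.4 ± 1.1 CPM and stood at 8.42 ± 0.48 CPM in ATG7/SQSTM1 KO. NMNAT2, the neuronal nicotinamide mononucleotide adenylyltransferase, fell from 5.83 ± 0.063 to 0.944 ± 0.29 CPM. NMNAT3, the mitochondrial form of that enzyme, fell from 8.75 ± 0.37 to 4.68 ± 0.55 CPM.

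Of 13 tested genes that work with ZC3HAV1 or in RNA decay, 8 rose and 4 fell in ATG7 KO, with a median of 0.18 (7 rose with library totals in place of TMM). TRIM25, the ubiquitin ligase that ZC3HAV1 needs for its antiviral action, rose from 131 ± 1.8 to 190.0 ± 4.6 CPM (log2 change 0.54, SE 0.031, edgeR adjusted p = 2.31e-12) and stood at 131 ± 3.6 CPM in ATG7/SQSTM1 KO. The deadenylase PARN rose by 0.31 and the decapping cofactor DCP1A by 0.34, while the decapping enzyme DCP2 fell by 0.32 and the helicase DDX17 fell by 0.12. In ATG7/SQSTM1 KO against control 6 rose and 2 fell.

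Interferon signalling genes and other interferon-stimulated genes were set beside the 6. Of 13 tested signalling genes, 9 rose and 2 fell in ATG7 KO (median 0.56), 2 rose and 3 fell in ATG7/SQSTM1 KO against control (median −0.026), and 11 were lower and 2 higher in ATG7/SQSTM1 KO than in ATG7 KO. With relative log expression size factors, 10 rose in ATG7 KO. IFNGR1, a receptor chain for interferon gamma, rose from 81.1 ± 1.6 to 162 ± 2.9 CPM, IRF1 from 25.6 ± 0.41 to 53.1 ± 1.6 CPM and STAT3 from 133 ± 4.3 to 197 ± 1.7 CPM. The kinase TYK2 fell by 0.19 and the receptor chain IFNAR2 fell by 0.49 on the log2 scale. The 12 other interferon-stimulated genes all rose in ATG7 KO, with a median of 2.59 beside 1.24 for the 6. Among them IFIT1 rose by 3.06, OAS1 by 3.03, BST2 by 2.92 and IFI44L by 1.88, and in ATG7/SQSTM1 KO against control 8 of the 12 were still higher (median 0.32). All 12 were lower in ATG7/SQSTM1 KO than in ATG7 KO.

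Interferon genes themselves were near the limit of detection, and none of the 9 listed passed the filter. IFNL1 had 2, 30 and 32 counts in all over the control, ATG7 KO and ATG7/SQSTM1 KO libraries. For IFNE the sums were 5, 42 and 19, and for IFNB1 they were 2, 10 and 7. No count was found for IFNK, IFNL2 and IFNL4 in any library. IFNA1, IFNG and IFNL3 had at most 4 counts in any group. These sums carry no test.

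The genes whose pattern was most like the mean of the 6 were found by the root mean square distance between log2 CPM profiles centred on control, over the 9 libraries and 11296 candidate genes of at least 5 CPM on average. Among the 5 nearest were PLK2 (distance 0.054), TRIM21 (0.067), TNS2 (0.072) and TNS3 (0.087). PLK2, a polo-like kinase, stood at 16.8 CPM on average in control, 41.4 CPM in ATG7 KO and 18.1 CPM in ATG7/SQSTM1 KO. For 5 of the single genes the nearest was IFI44L for PARP9 (0.081), DDX60 for PARP14 (0.046), FCGR2A for PARP10 (0.077), SLC12A7 for PARP12 (0.035) and ZNFX1 for ZC3HAV1 (0.048). Among the 6 themselves PARP12 and ZC3HAV1 were the closest pair (0.087), followed by PARP10 and DTX3L (0.117) and PARP9 and PARP14 (0.158), while PARP9 and its partner DTX3L lay at 0.291.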

How the data were processed

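The deposited table gives raw counts per gene for 9 libraries, prepared per the labels' protocols from 400 ng of rRNA-depleted RNA with dUTP strand marking and 12 PCR cycles. HISAT2 and hg38 are named per the submitters' processing notes. For the counting program, annotation and strand: not given in the sources used here. Missing cells, 362598 in all, were read as 0. A row that numbers the columns and an unlabelled column of zeros were left out. Coordinates and exon lengths are from GENCODE 29 (GRCh38), which matched 58503 of 67140 gene IDs by identifier, with 99.957% of counts. Promoter sequences are from RefSeq (GRCh38.p14).

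Counts were tested with edgeR 4.0.16 in R 4.3.3: filterByExpr (minimum count 10), TMM, a robust quasi-likelihood fit of all 9 libraries by group with 6 residual degrees of freedom and a biological coefficient of variation of 6.39%. The scripts were tested on simulated counts. Pairs of replicates differed by more than sampling noise (chi-square over its degrees of freedom, 4.47 to 7.03). Ratios and shares were tested by exact permutation over libraries in SciPy 1.17.1. Alternatives included DESeq2 1.42.0, other scalings and filters, a replicate block and leaving out each library.

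The 6 genes and all lists were chosen with earlier results of these data known. Named genes are the 6, ATG7 and SQSTM1, up to 4 genes of each list with the smallest p in ATG7 KO against control plus at most 2 called the other way, up to 4 neighbours of each locus within 500 kb, and the most similar patterns. ADPRS was found by gene ID. PARG, TTC26, PARP2, PARP8, PARP11 and PARP15 were named after their values were seen. Values of 1 gene that this rule names are not reported here.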

Additional observations from a re-analysis of the deposited data

How the results depend on the processing

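In ATG7 KO against control and in ATG7/SQSTM1 KO against ATG7 KO, each of the 6 genes kept its direction and an adjusted p under 0.05 in all alternatives run, while the 2-fold limit in the latter was lost by PARP10 and reached by PARP12 in the settings given above. The count of genes lower in ATG7/SQSTM1 KO than in control ranged from 0 to 1 when single libraries were left out, the 1 being PARP12 without ATG7/SQSTM1 KO replicate 3, and the count of those higher from 3 to 4. ZC3HAV1 in that comparison ranged from −0.029 to 0.0035 on the log2 scale, changing sign without control replicate 2. The difference in the share of the PARP family between ATG7/SQSTM1 KO and control was 0.033 percentage points with plain counts and ranged from −0.28 to 0.284 when a library was left out, an alternative chosen after seeing the data. With plain counts the share was 18.1 percentage points higher in ATG7 KO than in control. The differences between groups in the PARP9 to DTX3L ratio kept their direction throughout.

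Replicate numbers are shared between groups, but same-numbered libraries did not deviate together (correlations from −0.0613 to 0.0234), so they were treated as sharing only a number. With the replicate block, edgeR called 10564, 7137 and 11262 genes in the 3 comparisons, against 10688, 7281 and 11395 without it, and changed no call on the 6 genes. At 12.1 to 15.6 CPM outside ATG7 KO, PARP10 has the widest interval of the 6.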
